A study of Mus musculus with 12 samples.

Results

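The sterol and fatty acid synthesis genes are 32 genes picked by symbol for the role of their product: 9 of the mevalonate and isoprenoid steps, 10 of the steps from squalene to cholesterol, 8 that control the SREBP transcription factors and 5 of fatty acid synthesis. They were followed in mouse ovaries with and without Foxl2, which encodes a forkhead transcription factor made by granulosa cells, and in testes. For each gene the probe set with the highest mean over the arrays of its table was used. On the adult arrays 30 of the 32 were measured among 19938 genes, Acat2 and Mbtps2 being the exceptions. On the arrays of postnatal day 3 (P3) 31 were measured among 18194 genes, without Acat2.

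Cholesterol is built from acetyl-CoA. Acetyl units are joined and reduced to mevalonate, mevalonate becomes the isoprenoid farnesyl diphosphate, and a pair of these is joined to squalene, which is oxidised, closed into lanosterol and trimmed to cholesterol. The same acetyl-CoA feeds fatty acid synthesis. When sterol is scarce in the endoplasmic reticulum, the escort protein SCAP carries the SREBP precursors to the Golgi, where proteases release their active fragments. When sterol is plentiful, INSIG proteins hold SCAP back. In the ovary cholesterol is also the raw material of steroid hormones, and the corpus luteum, which forms from the follicle after ovulation, is known as a heavy user of it.

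The adult set held 8 arrays from single animals aged 8 weeks: 2 wild-type ovaries, 3 ovaries given in the labels as Foxl2 flox/flox x CreEBD, and 3 wild-type testes, each sampled in part. Perfusion was with saline, and labelling started from 300 ng of RNA. Which promoter drives the Cre transgene, when the deletion took place and which strain was used were not given in the sources used here. At P3 there were 4 arrays, 2 of wild-type and 2 of Foxl2 KO ovaries, each a pool of more than 10 females without perfusion, and labelling started from 1 µg. Both sets are bulk tissue, so fewer cells of a type and less RNA per cell cannot be told apart. The number of arrays limits the precision. Adult levels below are log2 values from RMA, and P3 values are linear MAS5 signals. A gene is said to rise or fall, or to be called, when its Benjamini-Hochberg adjusted p over all genes in limma was under 0.05, and ± gives the standard error (SE) of a log2 difference.

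As a check of the labels, Foxl2 itself fell in both sets of mutants (limma adjusted p = 5.08e-07 in adults and 0.0238 at P3). In adults the wild-type ovaries had log2 levels of 8.75 and 8.81, the mutant ovaries of 5.81, 6.04 and 5.73 and the testes of 5.22, 5.38 and 5.31. At P3 the wild-type signals were 814.5 and 829.9 and the KO signals 186.4 and 153.7. In the adult mutant ovaries 10 of 10 measured Sertoli cell markers were higher than in wild-type ovary (limma, adjusted p under 0.05). Of the 11 granulosa cell markers 8 were lower and 1 higher. Nr0b1, from the granulosa cell list, was at 7.61 and 5.50 in the wild-type ovaries and at 10.57, 10.86 and 10.79 in the mutants. The 10 spermatid markers averaged 10.96 to 11.09 in the testes and 3.78 to 4.01 in the 5 adult ovaries, below the median of each array. Within groups the arrays correlated at 0.978 to 0.992 (adult) and 0.957 to 0.964 (P3) over probe sets.

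The SREBP proteins bind short sterol response elements near the starts of their target genes, usually beside sites for partner factors. The 250 bases before each start listed by RefSeq (mouse build GRCm38.p6) were searched on both strands; 25 of the 32 genes had an entry. The classic sterol response element letters TCACNCCAC were found for 1 of these 25 genes, Hmgcs1, against 1.22% of all 27025 genes with an entry. The letters CCAAT, read by the partner factor NF-Y, were found for 19 of 25 against 37.5%, the GC box GGGCGG for 20 of 25 against 35.4%, and the E-box CACGTG for 4 of 25 against 6.86%. Matches of different motifs were counted separately, whether or not they overlapped. A match describes the letters and not a bound site. The promoter of Hmgcs1 is shown because it holds the sterol response element, which begins 137 bases before the start. Those of Lss and Sc5d were chosen after their values were seen, as the genes with the largest difference between the wild-type ovaries and the largest fall in the mutants. Capitals mark the sterol response element and the CCAAT box read on either strand (ATTGG is CCAAT on the other strand). They lie at chr13:119690101-119690350 (plus strand), chr10:76531355-76531604 (plus strand) and chr9:42264301-42264550 (minus strand) and are written 5′ to 3′ along the gene.
Hmgcs1: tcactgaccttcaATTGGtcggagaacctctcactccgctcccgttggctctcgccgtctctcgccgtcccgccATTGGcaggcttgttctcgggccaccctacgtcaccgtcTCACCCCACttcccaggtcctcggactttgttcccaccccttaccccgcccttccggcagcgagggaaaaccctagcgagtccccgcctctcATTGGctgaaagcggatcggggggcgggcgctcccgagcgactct
Lss: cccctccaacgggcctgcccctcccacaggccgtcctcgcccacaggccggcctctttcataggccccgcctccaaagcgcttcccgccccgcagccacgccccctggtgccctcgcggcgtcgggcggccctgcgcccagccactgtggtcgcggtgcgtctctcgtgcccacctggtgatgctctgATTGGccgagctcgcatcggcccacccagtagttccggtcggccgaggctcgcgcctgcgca
Sc5d: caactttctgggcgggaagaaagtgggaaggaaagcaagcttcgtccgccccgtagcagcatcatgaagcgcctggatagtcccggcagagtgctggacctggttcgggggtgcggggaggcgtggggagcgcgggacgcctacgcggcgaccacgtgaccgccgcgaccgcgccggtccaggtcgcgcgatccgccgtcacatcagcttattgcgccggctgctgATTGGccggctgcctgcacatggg
The Hmgcs1 stretch holds 3 CCAAT boxes beside its sterol response element, and those of Lss and Sc5d hold 1 CCAAT box each.

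The 2 adult wild-type ovaries differed from each other in these genes more than in most. In wild-type ovary 2 the level was higher than in wild-type ovary 1 for 28 of the 30 measured genes, with Acat1 and Mbtps1 the exceptions, against 9406 of all 19938 genes. It was higher by more than 1 on the log2 scale for 17 of the 30 and lower by more than 1 for 0, whereas 1.6% of all genes were higher and 1.81% lower by that much. The median difference was 1.10 for the 30 genes and -0.02 for all genes. By role the medians were 1.14 for the mevalonate steps, 1.64 for the steps from squalene to cholesterol, 0.44 for SREBP control and 0.64 for fatty acid synthesis. These are values of 2 single animals, with no test. The adult comparisons with wild-type ovary rest on this pair, and counts of the 30 genes are therefore given with both ovaries and against each alone. In the fits against a single wild-type ovary that ovary is assumed to vary like the other groups. Many of these genes varied more between the wild-type ovaries. Hmgcs1 had a standard deviation of 1.27 in the wild-type ovaries, 0.24 in the mutants and 0.07 in the testes. Calls and SE from those fits hold no spread between wild-type animals and describe the distance from a single animal.

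**Figure D1:**
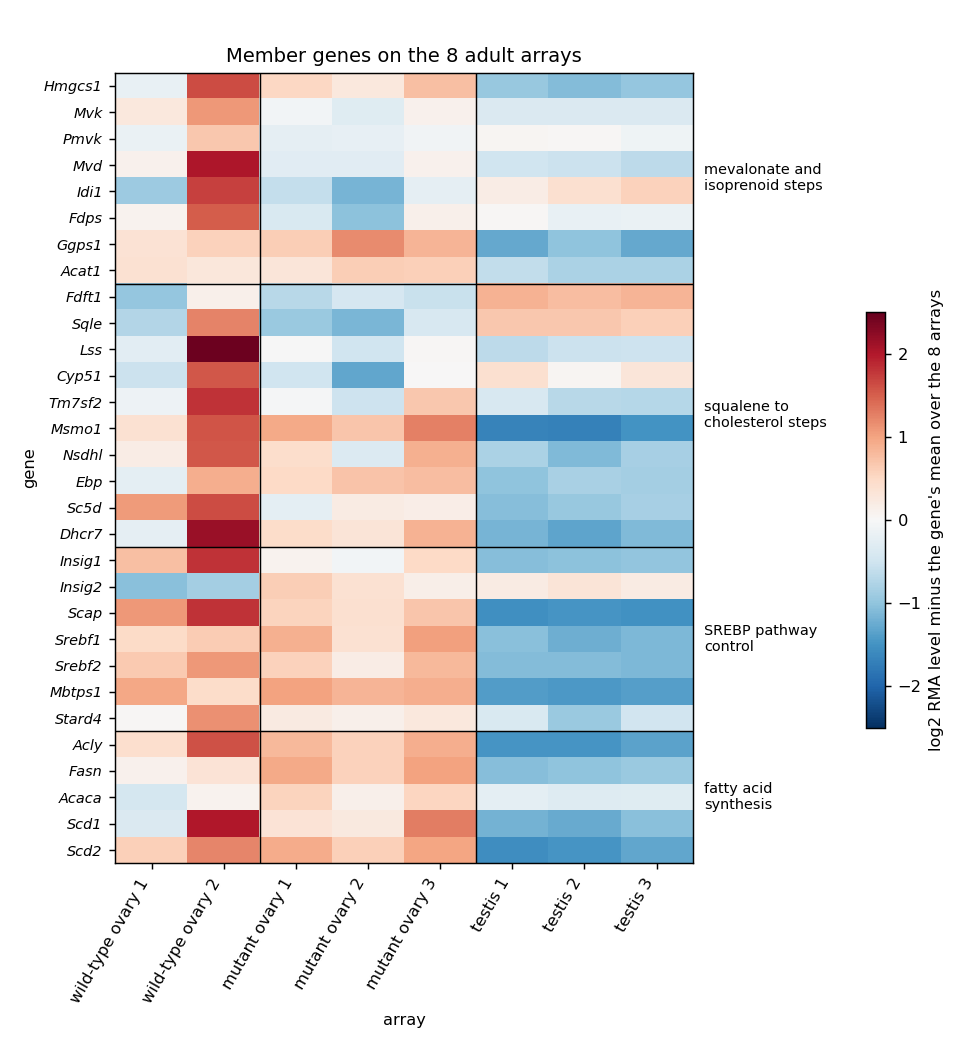
Log2 RMA level of the 30 measured genes (rows, by role) on the 8 adult arrays (columns), each minus that gene's mean over the 8 arrays; red is above and blue below the mean. The column of wild-type ovary 2 is the darkest red for most of the sterol enzymes, wild-type ovary 1 lies near the mutant ovaries for many of them, and the testes are blue except for genes such as Fdft1, Sqle, Idi1 and Insig2.

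Markers of ovarian cell types differed between the same 2 ovaries. Wild-type ovary 2 had the higher level for 5 of 5 measured corpus luteum markers (list mean 7.83 in ovary 1 and 9.51 in ovary 2), 7 of 8 theca and Leydig steroidogenic markers (8.64 and 9.28), 5 of 6 adipocyte markers (4.54 and 5.35) and 5 of 6 endothelial markers. It had the higher level for 1 of 12 oocyte markers (list mean 7.08 in ovary 1 and 5.55 in ovary 2), 1 of 11 granulosa cell markers (9.89 and 8.99), 2 of 10 Sertoli cell markers, and 0 of 6 smooth muscle and 0 of 6 surface epithelium markers. Star, which moves cholesterol into mitochondria for steroid synthesis, was at 7.73 in ovary 1 and 11.17 in ovary 2, and the luteal prostaglandin receptor gene Ptgfr at 6.88 and 9.86. Cyp17a1 was the exception among the theca and Leydig steroidogenic markers, at 11.05 in ovary 1 and 9.08 in ovary 2. Among the adipocyte markers the fat hormone gene Adipoq was at 3.87 in ovary 1 and 5.38 in ovary 2. Plin1, the marker of that list with the highest level in both ovaries, went the other way, at 7.20 and 6.61. In ovary 1 Adipoq, Cidec, Fabp4, Retn and Lep lay below the array median, and in ovary 2 only Lep did. In the mutant ovaries the corpus luteum list averaged 7.72, 8.76 and 8.32, between the 2 wild-type values for mutants 2 and 3 and below both for mutant 1, and the adipocyte list averaged 4.21 to 4.65. In the mutants against both wild-type ovaries 6 of 6 smooth muscle markers and 3 of 6 endothelial markers were lower. Of the theca and Leydig steroidogenic markers 3 of 8 were lower and 1 higher, 2 of 5 macrophage markers and 1 of 6 surface epithelium markers were higher, and 0 of 5 corpus luteum, 0 of 12 oocyte and 0 of 6 adipocyte markers were called. The part of any of these cell types in the values of the synthesis genes was not tested.

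Across the pathway, few genes passed the test between the mutant and the wild-type ovaries, and which did depended on the wild-type ovary. With both ovaries 3 of the 30 genes rose (Insig2, Fasn and Acaca) and 4 fell (Sc5d, Insig1, Scap and Mvk) at an adjusted p under 0.05 in limma, where 9.55% of all genes rose and 6.66% fell. The median log2 difference was -0.36, against -0.02 for all genes. Against wild-type ovary 2 alone 20 fell and 2 rose, with a median of -1.02 and a background of 8.03% lower and 10.8% higher. Against wild-type ovary 1 alone 2 fell and 7 rose, with a median of 0.17 and a background of 7.23% lower and 8.8% higher. Insig2, Sc5d and Scap were called in the same direction each time. Hmgcs1, Fdft1 and Dhcr7 were called lower against ovary 2 and higher against ovary 1, in fits that hold no spread between wild-type animals. Leaving out mutant ovary 1 or mutant ovary 2 left 2 genes lower.

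On the arrays themselves, the 3 mutant ovaries lay above both wild-type ovaries for 4 genes (Ggps1, Insig2, Fasn and Acaca) and below both for 5 (Mvk, Mvd, Sc5d, Insig1 and Scap). Among all genes 19.3% lay above and 20.6% below in this way. For 9 genes all 3 mutants fell between the wild-type ovaries, and for 12 the arrays were interleaved in other ways. The mutant mean was below wild-type ovary 2 for 23 of the 30 genes and below wild-type ovary 1 for 11.

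**Figure D2:**
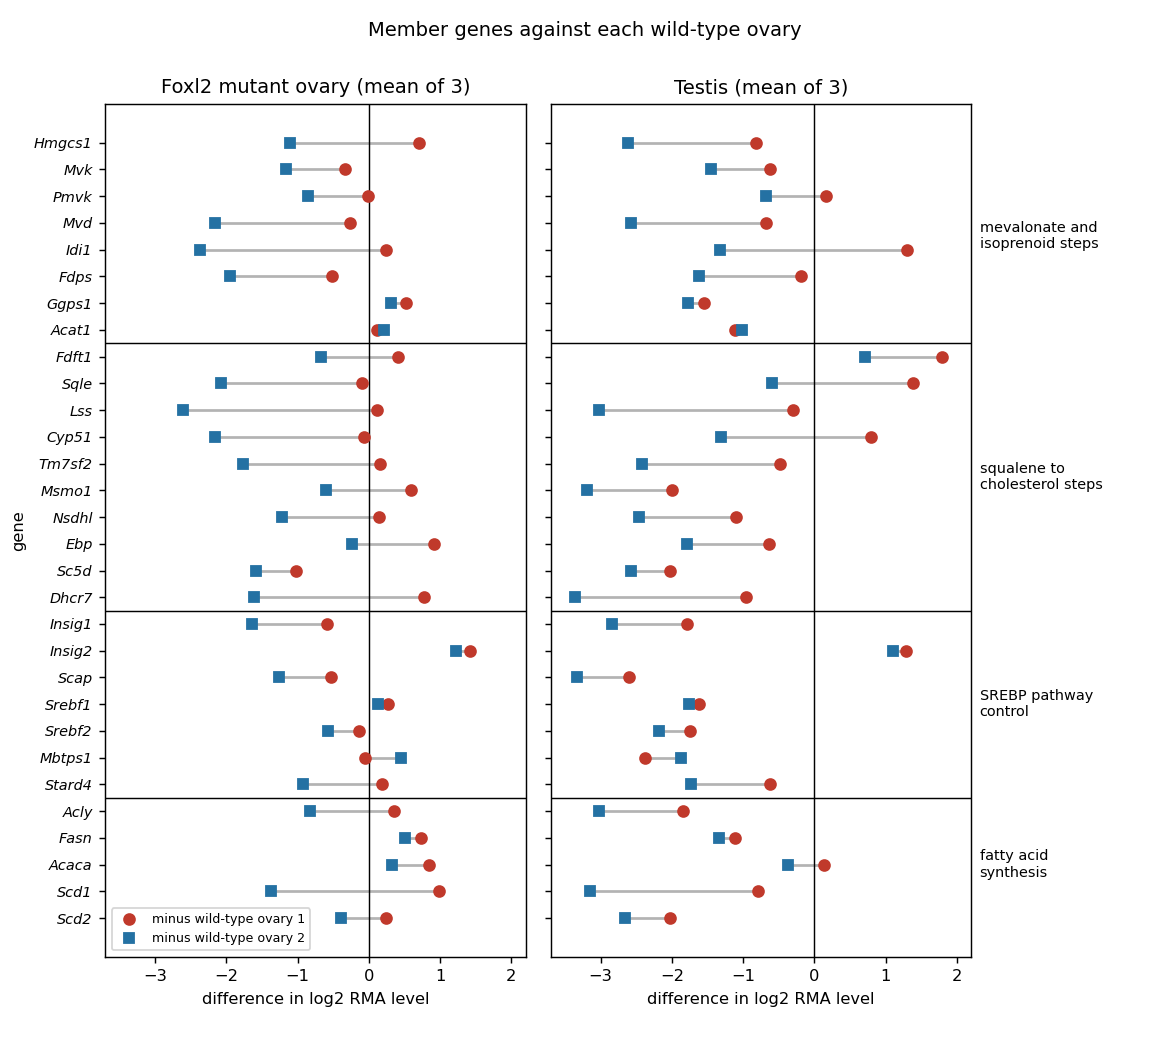
Difference in log2 RMA level of the mutant ovaries (left, mean of 3 arrays) and the testes (right, mean of 3 arrays) from wild-type ovary 1 (red circles) and wild-type ovary 2 (blue squares), with a grey line joining the 2 values of a gene. In the mutant panel most lines of the sterol enzymes cross or touch 0. Those of Mvk, Mvd, Fdps, Ggps1, Acat1, Sc5d, Insig1, Insig2, Scap, Srebf1, Srebf2, Fasn and Acaca stay on a single side. In the testis panel most lines lie below 0.

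The mevalonate steps were represented by 8 genes, of which Mvk fell and none rose in the mutants with both wild-type ovaries. Values are given throughout in replicate order. Hmgcs1, the synthase that makes HMG-CoA, was at 8.61 and 10.42 in the wild-type ovaries, 9.31, 9.07 and 9.56 in the mutants and 7.85, 7.72 and 7.82 in the testes. All 3 mutants lay between the 2 wild-type ovaries, and all 3 testes below both. The mutants differed from wild-type ovary 1 by 0.70 and from ovary 2 by -1.11. With both ovaries the difference was -0.20 ± 0.39 (limma adjusted p = 0.796). Mvk, mevalonate kinase, was at 6.73 and 7.56 in the wild-type ovaries, 6.42, 6.18 and 6.59 in the mutants and 6.12, 6.11 and 6.11 in the testes. The mutants lay below both wild-type ovaries and above the testes. It fell by 0.75 ± 0.22 (limma adjusted p = 0.042), a call that was lost when each array was centred on its median (adjusted p = 0.0512), without wild-type ovary 2 (-0.34), without mutant ovary 1 (-0.76) and without mutant ovary 2 (-0.64). Pmvk, which adds the next phosphate, was at 5.56 and 6.40 in the wild-type ovaries, 5.50, 5.51 and 5.64 in the mutants and 5.77, 5.76 and 5.62 in the testes. Apart from wild-type ovary 2 all of its values lay close together.

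Mvd, the decarboxylase that yields isopentenyl diphosphate, was at 6.54 and 8.43 in the wild-type ovaries, 6.14, 6.14 and 6.52 in the mutants and 5.91, 5.89 and 5.77 in the testes. The mutants lay below both wild-type ovaries, with mean differences of -0.27 from ovary 1 and -2.17 from ovary 2, and the fit with both missed the threshold (-1.22 ± 0.41, limma adjusted p = 0.0761). Idi1, the isomerase of isopentenyl diphosphate, was at 6.94 and 9.56 in the wild-type ovaries, 7.26, 6.68 and 7.62 in the mutants and 8.04, 8.25 and 8.43 in the testes. The mutants grouped around ovary 1, and the testes lay between the wild-type ovaries. A second probe set of Idi1 gave a mutant difference of -1.14 beside the -1.06 of the set used. Fdps, which makes farnesyl diphosphate, was at 8.35 and 9.79 in the wild-type ovaries, 7.88, 7.25 and 8.38 in the mutants and 8.29, 8.08 and 8.11 in the testes. Mutant and testis values overlapped, and the mutant difference of -1.23 ± 0.39 (limma adjusted p = 0.058) missed the threshold. It passed in 4 of 13 alternatives: with the filter on low values (adjusted p = 0.0499), with quantile normalization (-1.39), without wild-type ovary 1 (-1.95) and without mutant ovary 3 (-1.51).

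The remaining genes of this group showed smaller differences between the wild-type ovaries. Ggps1, which extends farnesyl to geranylgeranyl diphosphate for protein prenylation, was at 7.61 and 7.83 in the wild-type ovaries, 7.87, 8.43 and 8.10 in the mutants and 5.97, 6.24 and 5.97 in the testes. All mutants lay above both wild-type ovaries, by 0.41 ± 0.17 (limma adjusted p = 0.144), and all testes far below. Acat1, the mitochondrial thiolase of ketone body metabolism, was at 8.59 and 8.50 in the wild-type ovaries, 8.52, 8.81 and 8.80 in the mutants and 7.59, 7.42 and 7.41 in the testes. The 5 ovaries overlapped in Acat1 and the testes lay below them. Against wild-type ovary 2 alone 6 of the 8 genes were lower in the mutants, the exceptions being Ggps1 and Acat1, and against wild-type ovary 1 alone Hmgcs1 was higher and none was lower.

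From squalene to cholesterol 10 genes were measured, of which Sc5d fell in the mutants and none rose. Fdft1, squalene synthase, was at 8.95 and 10.03 in the wild-type ovaries, 9.22, 9.49 and 9.36 in the mutants and 10.77, 10.69 and 10.77 in the testes. The mutants lay between the wild-type ovaries and every testis above all ovaries. The mutants differed by 0.41 from ovary 1 and by -0.67 from ovary 2. With both ovaries the difference was -0.13 ± 0.24 (limma adjusted p = 0.783). Sqle, squalene epoxidase, was at 7.57 and 9.54 in the wild-type ovaries, 7.36, 7.15 and 7.90 in the mutants and 8.97, 8.97 and 8.90 in the testes. The mutants straddled ovary 1, and the testes lay between the wild-type ovaries. Lss, which closes the rings to form lanosterol, was at 6.60 and 9.33 in the wild-type ovaries, 6.85, 6.38 and 6.90 in the mutants and 6.21, 6.33 and 6.36 in the testes. Its difference of 2.72 between the wild-type ovaries was the largest of the 30 genes, and the mutants and ovary 1 overlapped.

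**Figure D3:**
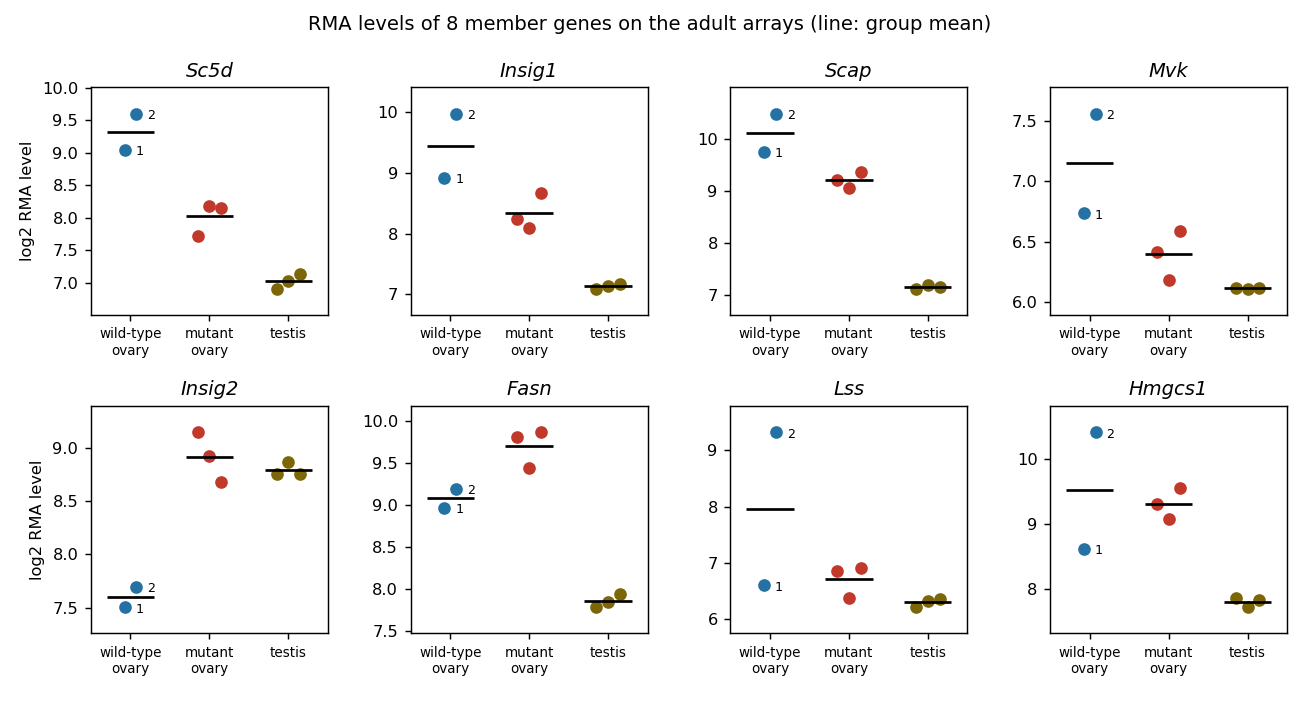
Log2 RMA level of 8 genes on the adult arrays (points, in replicate order within a group; wild-type ovaries numbered) with the group mean as a line; each panel has its own axis, which does not start at 0. Sc5d, Insig1, Scap and Mvk lie lower and Insig2 and Fasn higher in all 3 mutants than in both wild-type ovaries, whereas in Lss and Hmgcs1 the 2 wild-type ovaries lie far apart.

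The next 4 enzymes remove methyl groups and reduce double bonds. Cyp51, the lanosterol demethylase, was at 6.75 and 8.84 in the wild-type ovaries, 6.78, 5.98 and 7.29 in the mutants and 7.69, 7.34 and 7.58 in the testes. Tm7sf2, a sterol reductase, was at 6.49 and 8.41 in the wild-type ovaries, 6.57, 6.08 and 7.28 in the mutants and 6.20, 5.91 and 5.89 in the testes. In both genes wild-type ovary 2 was the highest array and mutant ovary 2 the lowest of the ovaries. Msmo1, the methylsterol oxidase, was at 10.13 and 11.33 in the wild-type ovaries, 10.70, 10.44 and 11.02 in the mutants and 8.09, 8.06 and 8.25 in the testes. Nsdhl, a sterol dehydrogenase that acts in the same demethylation, was at 7.57 and 8.93 in the wild-type ovaries, 7.82, 7.04 and 8.27 in the mutants and 6.58, 6.28 and 6.54 in the testes. The testes lay below all ovaries in Msmo1 and Nsdhl. None of the 4 passed the test between mutants and both wild-type ovaries, with differences of -1.11 ± 0.52, -0.80 ± 0.48, -0.01 ± 0.29 and -0.54 ± 0.40.

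The last 3 enzymes move and reduce double bonds of the ring system. Sc5d, the sterol desaturase before the final reductions, was at 9.04 and 9.60 in the wild-type ovaries, 7.72, 8.19 and 8.14 in the mutants and 6.91, 7.02 and 7.14 in the testes. The 3 groups did not overlap. It fell in the mutants by 1.30 ± 0.19 (limma adjusted p = 9.91e-04), by 1.03 against ovary 1 and by 1.58 against ovary 2, and was called under each of the 13 alternatives. Ebp, a sterol isomerase, was at 6.99 and 8.14 in the wild-type ovaries, 7.74, 7.95 and 8.01 in the mutants and 6.24, 6.43 and 6.39 in the testes. The mutants lay between the wild-type ovaries, with mean differences of 0.91 from ovary 1 and -0.24 from ovary 2. Dhcr7, a terminal reductase that yields cholesterol, was at 7.58 and 9.97 in the wild-type ovaries, 8.26, 8.12 and 8.68 in the mutants and 6.64, 6.49 and 6.71 in the testes. The mutants again lay between, with differences of 0.78 from ovary 1 and -1.62 from ovary 2. Of the 10 genes 9 were lower against ovary 2 alone, all but Ebp, while against ovary 1 alone Fdft1, Ebp and Dhcr7 were higher and Sc5d lower.

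Of the 7 measured genes of SREBP control, Insig2 rose and Insig1 and Scap fell in the mutants. Insig1, an SREBP target that retains SCAP, was at 8.92 and 9.97 in the wild-type ovaries, 8.24, 8.09 and 8.67 in the mutants and 7.09, 7.13 and 7.17 in the testes. The 3 groups did not overlap. It fell by 1.11 ± 0.27 (limma adjusted p = 0.0175). The call was lost without wild-type ovary 2 (-0.59), without mutant ovary 1 (-1.07) and without mutant ovary 2 (-0.99). The same happened when only the 2 groups compared were fitted (limma adjusted p = 0.0748). Insig2, the second retention protein, was at 7.51 and 7.69 in the wild-type ovaries, 9.15, 8.93 and 8.68 in the mutants and 8.76, 8.87 and 8.75 in the testes. Mutants and testes overlapped and both lay above the wild-type ovaries. The rise in the mutants was 1.32 ± 0.14 (limma adjusted p = 1.46e-04), 1.41 against ovary 1 and 1.22 against ovary 2, and it was called under each of the 13 alternatives. Scap, the escort protein, was at 9.76 and 10.49 in the wild-type ovaries, 9.22, 9.07 and 9.37 in the mutants and 7.13, 7.19 and 7.15 in the testes. The groups did not overlap, and Scap fell by 0.90 ± 0.19 (limma adjusted p = 0.00855). This call held in 12 of 13 alternatives. It was lost when only the 2 groups compared were fitted (limma adjusted p = 0.0506).

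The SREBP genes themselves did not pass the test between mutant and wild-type ovaries. Srebf1, whose products act mainly on fatty acid genes, was at 7.79 and 7.94 in the wild-type ovaries, 8.19, 7.67 and 8.32 in the mutants and 6.26, 6.07 and 6.18 in the testes. Srebf2, whose product acts mainly on sterol genes, was at 8.76 and 9.20 in the wild-type ovaries, 8.69, 8.29 and 8.91 in the mutants and 7.03, 7.03 and 6.99 in the testes. In both the 5 ovaries overlapped and the testes lay below them. Mbtps1, the Golgi protease that makes the first cut in the precursors, was at 10.46 and 9.95 in the wild-type ovaries, 10.49, 10.34 and 10.39 in the mutants and 8.08, 8.05 and 8.11 in the testes. Here wild-type ovary 2 was the lowest ovary, and the mutant mean was higher than it by 0.45. Stard4, a cytosolic sterol carrier, was at 5.87 and 6.99 in the wild-type ovaries, 6.08, 5.98 and 6.11 in the mutants and 5.46, 4.92 and 5.36 in the testes. The mutants lay between the wild-type ovaries, close to ovary 1. Against ovary 2 alone Insig1, Scap and Stard4 were lower and Insig2 and Mbtps1 higher.

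In fatty acid synthesis 2 of 5 genes, Fasn and Acaca, rose in the mutants and none fell. Fasn, fatty acid synthase, was at 8.97 and 9.20 in the wild-type ovaries, 9.81, 9.44 and 9.87 in the mutants and 7.79, 7.86 and 7.94 in the testes. Mutants lay above wild-type ovaries and testes below, with no overlap. The rise was 0.62 ± 0.14 (limma adjusted p = 0.0144), and without wild-type ovary 1 it missed the threshold (0.51). It also missed when only the 2 groups compared were fitted (limma adjusted p = 0.0748). Acaca, the carboxylase that makes malonyl-CoA, was at 7.74 and 8.25 in the wild-type ovaries, 8.73, 8.30 and 8.71 in the mutants and 7.92, 7.85 and 7.86 in the testes. Its lowest mutant lay just above wild-type ovary 2. The rise was 0.58 ± 0.17 (limma adjusted p = 0.0465), which held in 4 of 13 alternatives. The call was lost on leaving out wild-type ovary 1 (0.33) and likewise on leaving out mutant ovary 1 (0.51) or 3 (0.52). The second probe set of Acaca gave 0.28.

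The lyase and the desaturases did not pass the test with both wild-type ovaries. Acly, which releases acetyl-CoA from citrate, was at 9.21 and 10.39 in the wild-type ovaries, 9.61, 9.38 and 9.70 in the mutants and 7.33, 7.32 and 7.47 in the testes. Scd1, a stearoyl-CoA desaturase, was at 6.96 and 9.32 in the wild-type ovaries, 7.66, 7.56 and 8.60 in the mutants and 6.14, 6.07 and 6.28 in the testes. In both genes the 3 mutants lay between the wild-type ovaries, and against ovary 2 alone they were lower (Acly -0.83, Scd1 -1.38). Scd2, the related desaturase, was at 11.24 and 11.87 in the wild-type ovaries, 11.56, 11.25 and 11.63 in the mutants and 9.09, 9.18 and 9.35 in the testes. Its ovarian values overlapped and the testes lay below. Against ovary 1 alone Fasn and Acaca were higher and none of the 5 genes was lower.

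In testis most of the genes were lower than in wild-type ovary. With both wild-type ovaries 22 of 30 fell and 2 rose, against 35.9% and 24.4% of all genes, and the median was -1.64 against -0.15 for all genes. The testes lay below both wild-type ovaries for 23 genes and above both for 2, compared with 45.4% and 28.5% of all genes, and between them for the other 5. All SREBP control genes except Insig2 fell. Scap fell by 2.96 ± 0.19, Insig1 by 2.32 ± 0.27, Mbtps1 by 2.12 ± 0.14, Srebf2 by 1.97 ± 0.19, Srebf1 by 1.69 ± 0.18 and Stard4 by 1.18 ± 0.28. Insig2 rose by 1.19 ± 0.14 (limma adjusted p = 3.06e-05). Among the fatty acid genes Acly fell by 2.43 ± 0.27, Scd2 by 2.35 ± 0.18, Scd1 by 1.97 ± 0.55 and Fasn by 1.22 ± 0.14, while Acaca differed by -0.11 ± 0.17 (adjusted p = 0.598).

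The sterol enzymes divided in testis. Msmo1 fell by 2.60 ± 0.29, Sc5d by 2.30 ± 0.19 and Dhcr7 by 2.16 ± 0.51, and Nsdhl, Hmgcs1, Lss, Ggps1, Mvd, Tm7sf2, Ebp, Acat1 and Mvk fell by 1.03 to 1.78. Squalene synthase, Fdft1, rose by 1.25 ± 0.24 (limma adjusted p = 0.00107), and its second probe set gave 1.30. Sqle (0.39 ± 0.44), Idi1 (-0.01 ± 0.58), Cyp51 (-0.26 ± 0.52), Fdps (-0.91 ± 0.39) and Pmvk (-0.26 ± 0.21) did not pass. Sqle and Idi1 differed in opposite directions from the 2 wild-type ovaries: Sqle by 1.38 from ovary 1 and -0.60 from ovary 2, Idi1 by 1.29 and -1.32. Against ovary 1 alone 19 genes were lower and 4 higher (background 33.9% and 23.5%), with a median of -0.80. Against ovary 2 alone 27 were lower and 2 higher (background 32.9% and 23.8%). The calls of Lss and Tm7sf2 were lost without wild-type ovary 2 (-0.30 and -0.49) and without testis 2 (-1.68 and -1.40) or testis 3 (-1.69 and -1.40). That of Lss was also lost without testis 1 (-1.62) and when only the 2 groups compared were fitted (-1.66). Scd1 lost its call without wild-type ovary 2 (-0.79). All 10 spermatid markers were higher in testis. So were 8 of 10 Sertoli cell markers, with 0 lower. Lower in testis were 5 of 5 corpus luteum (median -4.81), 10 of 12 oocyte, 5 of 6 endothelial, 6 of 6 surface epithelium and 2 of 6 adipocyte markers. Other lists were split. Of the theca and Leydig steroidogenic markers 5 of 8 were lower and 2 higher. The granulosa cell list had 10 of 11 lower and 1 higher, smooth muscle 5 of 6 lower and 1 higher, and macrophage 4 of 5 lower and 1 higher. Hsd3b6, from the theca and Leydig list, reached 8.29, 8.35 and 8.90 in testis, whereas wild-type ovary had 3.95 and 4.00. What these cell types contribute to the differences of the synthesis genes was not tested.

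The mutant ovaries were also compared with the testes, a comparison that does not use the wild-type ovaries' levels. It shares its arrays with the 2 comparisons above. The mutants were higher for 19 of 30 genes and lower for 2, against 37.5% and 24.3% of all genes, with a median of 1.22 against 0.14. All 3 mutants lay above all 3 testes for 22 genes and below for 4, compared with 42.8% and 26.7% of all genes. All 5 fatty acid genes were higher in the mutants, from 0.70 ± 0.16 for Acaca to 2.28 ± 0.16 for Scd2. Of SREBP control 6 of 7 were higher, with Mbtps1 at 2.32 ± 0.12 and Scap at 2.06 ± 0.17, and Stard4 (0.81) lost its call without testis 2 (0.64). Insig2 did not pass (0.12 ± 0.13, limma adjusted p = 0.434). Msmo1 was higher by 2.59 ± 0.26 and Ggps1 by 2.07 ± 0.15. The 2 lower genes were the enzymes that make and oxidise squalene, Sqle (-1.47 ± 0.40, adjusted p = 0.00758) and Fdft1 (-1.38 ± 0.22, 2.14e-04). When only the mutants and testes were fitted, Idi1 (-1.05 ± 0.20, limma adjusted p = 7.64e-04) and Cyp51 (-0.85 ± 0.26, 0.0138) were lower as well. Mvd, Lss and Tm7sf2 were then also called higher. Between the same groups 11 of 11 granulosa cell, 10 of 10 Sertoli cell, 5 of 5 corpus luteum (median 4.12), 11 of 12 oocyte and 6 of 6 surface epithelium markers were higher in the mutants, and 10 of 10 spermatid markers were lower (median -7.32). Also higher were 5 of 6 endothelial, 4 of 5 macrophage and 1 of 6 adipocyte markers, with 0 lower. The theca and Leydig steroidogenic list was split, with 5 of 8 markers higher and 2 lower in the mutants. Smooth muscle was split as well, with 3 of 6 higher and 1 lower. What any of these cell types contribute to the differences was not tested.

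At P3 no gene of the pathway passed the test. On the P3 arrays 0 of 31 genes were higher or lower in KO ovaries in limma, where 0.137% of all genes rose and 0.187% fell. At an unadjusted p under 0.05 there were 4 of 31, all higher in KO: Fasn, Dhcr7, Idi1 and Scd1. Among all genes 9.53% were under that p in either direction and 4.7% were under it and higher. The fit without an intensity trend also called 0. The median difference of log2(signal + 16) was 0.16, against -0.01 for all genes. It was 0.015 with the mean over a gene's probe sets and 0.032 with the probe set of largest variance. Both KO pools lay above both wild-type pools for 11 genes (Hmgcs1, Idi1, Sqle, Msmo1, Ebp, Dhcr7, Srebf1, Fasn, Acaca, Scd1 and Scd2) and below both for 2 (Mvd and Fdps), compared with 19.3% and 19.7% of all genes.

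Fasn had the largest P3 difference of the 31 genes. The wild-type pools had signals of 695.9 and 566.9 and the KO pools of 1269.5 and 1241.8, a difference of 0.98 ± 0.16 (SE) on the log2(signal + 16) scale with a limma adjusted p of 0.0898. It passed when dim genes were filtered out first (adjusted p = 0.0425). The KO pools had similar values and lay apart from the wild-type pools. Dhcr7 had signals of 792.9 and 831.2 in wild type and 1473.4 and 1201.5 in KO (0.70 ± 0.16, adjusted p = 0.175). Idi1 had 642.4 and 916.0 in wild type and 1168.8 and 1384.5 in KO (0.72 ± 0.21, 0.305). Scd1 had 359.1 and 354.6 in wild type and 524.4 and 521.1 in KO (0.53 ± 0.19, 0.417). In these 4 genes the groups did not overlap. Mvd had 394.9 and 375.9 in wild type and 224.1 and 369.2 in KO, with KO pool 2 close to wild type. Fdps had 320.9 and 280.9 in wild type and 233.6 and 216.4 in KO.

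Of the other members at P3, Sqle (0.54 ± 0.25) and Mvk (0.40 ± 0.33) had the largest differences, and neither passed. Hmgcs1 had signals of 9037.9 and 11948.7 in wild type and 12153.2 and 13845.2 in KO, and Sqle 906.8 and 1553.7 in wild type and 1669.0 and 1795.4 in KO. In both genes the wild-type pools differed from each other by more than the group means did. Most genes called in the adult mutants showed small differences at P3. Insig2 had 1132.3 and 1230.4 in wild type and 1108.7 and 1196.8 in KO, Sc5d 518.2 and 403.8 against 536.9 and 408.8, Scap 1570.2 and 1687.4 against 1937.9 and 1502.8, and Insig1 2245.3 and 3595.5 against 3321.3 and 3207.1. Their differences were -0.03 ± 0.14, 0.03 ± 0.23, 0.07 ± 0.16 and 0.20 ± 0.22. Acaca (0.19 ± 0.15) did not pass either. The remaining 17 genes lay between -0.15 and 0.31. Several P3 genes have more than 1 probe set, and these could differ in sign: the sets of Insig2 gave -0.03, 0.32 and -0.24, those of Scd2 0.22, -0.79 and -0.31, and those of Sc5d 0.03, 0.50 and -0.14. In the same order the mean signals were 1167.1, 1032.6 and 254.8 for Insig2 and 466.9, 166.4 and 220.7 for Sc5d. For Scd2 they were 11611.4, 58.2 and 121.8, where the array medians were 116.6 to 126.8. The Scd2 sets of opposite sign were thus dim. On the log2 scale used for the P3 differences, and not as signals, the adipocyte markers averaged 6.10 and 6.47 in wild type. In KO they averaged 7.12 and 7.10 on that scale (0 of 5 called). The part of these markers in the values of Fasn and Scd1 was not tested.

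**Figure D4:**
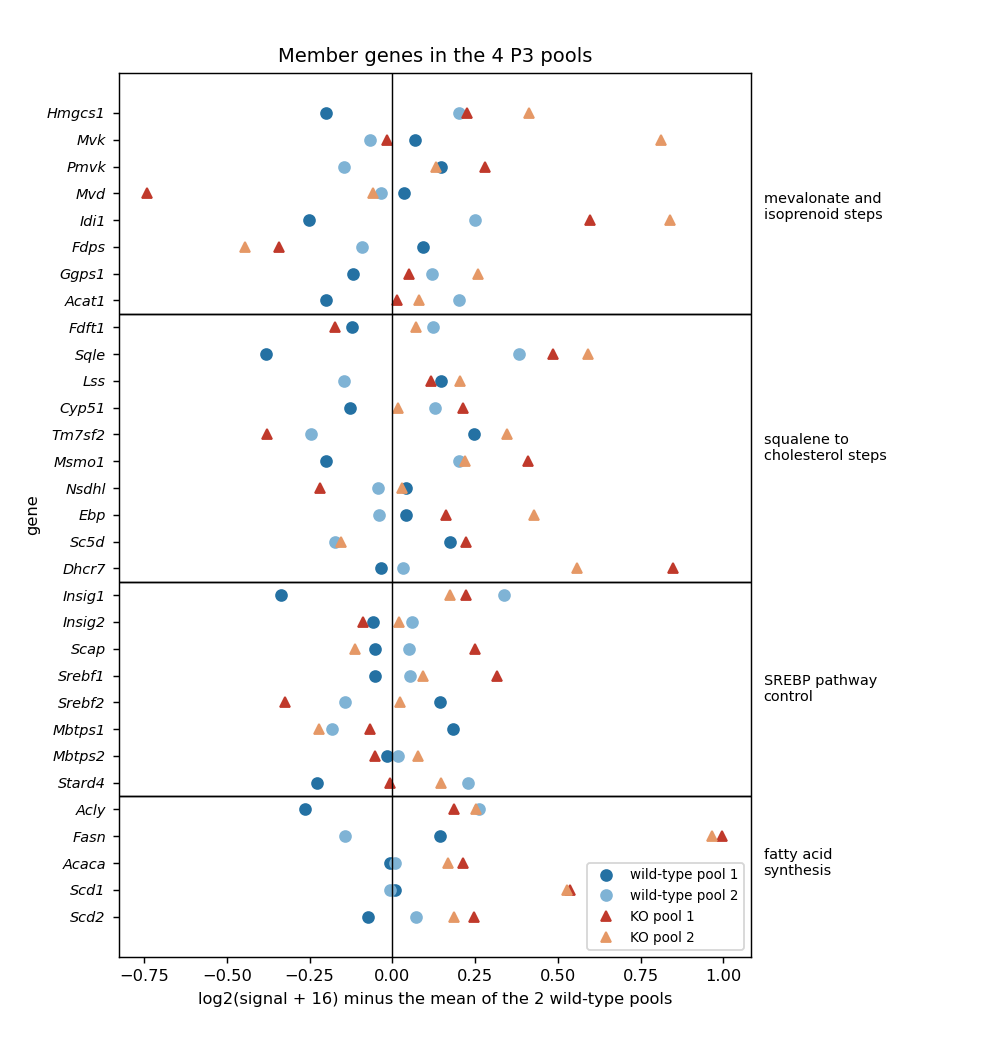
Log2(MAS5 signal + 16) of the 31 genes measured at P3 in each of the 4 pools, minus the mean of the 2 wild-type pools (circles wild type, triangles KO). Both KO pools of Fasn lie near 1, those of Dhcr7, Idi1 and Scd1 lie right of both wild-type pools, and for 18 genes KO and wild-type pools overlap.

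Genes around the pathway were read from 8 further lists, of which 57 of 65 genes were measured on the adult arrays. Between the mutant and both wild-type ovaries 8 rose and 8 fell (background 9.55% and 6.66%), with a median of -0.15. Which genes passed depended on the wild-type ovary. The median was -0.12 against wild-type ovary 2 alone and -0.01 against wild-type ovary 1 alone, with -0.01 and -0.02 for all genes. Elongation and further desaturation of fatty acids had the most calls, 4 higher and 3 lower of 14. Elovl2, an elongase of polyunsaturated acids, rose by 4.24 ± 0.19 (limma adjusted p = 5.08e-07), and Elovl3, an elongase of saturated and monounsaturated acids, by 2.17 ± 0.21. Elovl6, which extends palmitate, fell by 2.39 ± 0.20 (2.56e-05), and Elovl4, an elongase of very long chains, by 0.66 ± 0.18. In glycerolipid assembly 1 of 9 rose (Lpin2, a phosphatidate phosphatase, 0.69 ± 0.13) and 3 fell, among them Dgat2, which makes triglyceride, by 1.30 ± 0.36, and Gpam, which adds the first acyl chain, by 0.88 ± 0.16. The call of Dgat2 was lost without wild-type ovary 2 (-0.68) and that of Elovl4 without wild-type ovary 1 (-0.35).

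Of 9 genes for acetyl-CoA, NADPH and malonyl-CoA supply 1 rose, the citrate carrier Slc25a1 by 0.73 ± 0.17. Of 5 oxysterol and LXR genes 2 rose, the sterol hydroxylases Cyp27a1 by 1.05 ± 0.23 and Cyp7b1 by 0.99 ± 0.20. Nceh1, a cholesterol ester hydrolase, fell by 0.79 ± 0.18 among 4 genes of sterol ester storage, and Erlin1, which takes part in degrading sterol-regulated proteins of the endoplasmic reticulum, fell by 0.93 ± 0.15 among 5 genes of reductase and INSIG turnover. The calls of Slc25a1 (0.38) and Nceh1 (-0.62) were lost without wild-type ovary 1. None of the 7 prenyl and dolichol genes and none of the 4 other late sterol enzymes passed. Hsd17b7, from the last of these lists, was singled out after its values were seen: the mutants differed from both wild-type ovaries by -2.44 ± 0.81 (limma adjusted p = 0.0676), from ovary 1 by -0.52 and from ovary 2 by -4.37. Its product is a sterol ketone reductase that also acts on estrone. In testis 33 of the 57 genes fell and 15 rose against wild-type ovary (background 35.9% and 24.4%), with a median of -0.71. The median was -0.59 against ovary 2 alone and -0.61 against ovary 1 alone, with -0.15 for all genes in each case. In the mutants 32 were higher and 13 lower than in testis (background 37.5% and 24.3%). At P3 0 of 57 passed.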

How the data were processed

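The authors deposited adult values as log2 levels from RMA (background correction, normalization between arrays and a summary per probe set), run in Affymetrix Expression Console according to the submitters' processing notes. For P3 the authors deposited MAS5 signals, an intensity on a linear scale, also according to those notes, and each array had a trimmed mean of 500. The labels give a CodeLink protocol for P3 labelling although MAS5 belongs to Affymetrix arrays, which was not resolved. The versions of these tools were not given in the sources used here.

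Genes were named from the platform annotation; probe sets with several genes were left out (1621 adult, 932 P3). Differences were tested with limma 3.58.1 in R 4.3.3 (lmFit, eBayes with trend, two-sided, Benjamini-Hochberg over all genes, threshold 0.05). The 8 adult arrays were fitted with a mean per group, and the 4 P3 arrays as log2(signal + 16), which understates changes of dim genes. No test crossed the 2 tables. The adult replicates are separate animals and the P3 replicates separate pools. The fitting was tested on simulated data. Every member is named; of the other pathway lists, up to 2 genes in each direction with the largest difference among those past the threshold. Members, lists and tests were chosen with earlier results of these data known. Alternatives were the probe set rule, normalization, a filter on low values, the trend, the pseudocount, the arrays in the fit, the replicate block and leaving out each array.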

Additional observations from a re-analysis of the deposited data

How the results depend on the processing

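Direction and side of the threshold depended mainly on which wild-type ovary was in the fit. Leaving out each array in turn, the members called in mutant against wild-type ovary ranged from 2 to 7 higher and from 2 to 20 lower, and their median from -1.02 to 0.17. The difference of Hmgcs1 ranged from -1.11 to 0.70, of Fdft1 from -0.67 to 0.41 and of Dhcr7 from -1.62 to 0.78, the highest values being those without wild-type ovary 2. Of the members 2 to 4 were called higher in testis than in wild-type ovary, where the median ranged from -1.83 to -0.80, while Sqle ranged from -0.60 to 1.38 and Idi1 from -1.32 to 1.29. In mutant ovary against testis the median ranged from 1.00 to 1.25, and at P3 from 0.11 to 0.25. Fitting only the 2 groups compared left 1 member higher (Insig2) and 1 lower (Sc5d) in mutant against wild-type ovary. In mutant ovary against testis, where this fit leaves out the wild-type ovaries, 4 members were lower (Idi1 and Cyp51 added) and Mvd, Lss and Tm7sf2 were added as higher. The SE of Idi1 was 0.20 there and 0.52 with all groups. At P3 the mean over probe sets gave a median of 0.015, the probe set with the largest variance 0.032, and the filter on low values called 1 member higher (Fasn). With the replicate block Fasn was likewise called at P3 (1 member higher), and Mvk (-0.80) and Acaca (0.56) were lost in the adult mutants. Same-numbered arrays correlated at -0.003 to 0.079 in their deviations from the group means, and unlike-numbered arrays at -0.068 to 0.067. Between mutant ovaries and testes the same-numbered arrays were at 0.058 to 0.079 and the unlike-numbered at -0.060 to -0.002. At P3 the values were 0.042 and -0.042. With 2 or 3 arrays a group, these values cannot decide whether the numbers pair the samples. Normalization again or centring moved the median of all genes by -0.0923 to 0.0827 on the log2 scale. In mutant against wild-type ovary, centring ended the calls of Mvk (adjusted p = 0.0512) and Acaca (0.0713), and quantile normalization ended that of Acaca (0.0975) and added Fdps (0.0367), all by limma. With 2 wild-type ovaries, and 2 pools a group at P3, a difference that misses the threshold is not shown to be absent, and dim probe sets limit the P3 values of several members.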
